A study of Mus musculus with 6 samples.

Results

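The 5 CC chemokine genes (Ccl1, Ccl17, Ccl20, Ccl22 and Ccl24) and 4 CC chemokine receptor genes (Ccr4, Ccr6, Ccr7 and Ccr8) were followed across the leukocytes of the inflamed spinal cord. They were taken by name, and all 9 were among the 19449 genes of the single-cell table. The cells were CD45+ cells sorted from the spinal cords of C57BL/6 mice with adoptive transfer experimental autoimmune encephalomyelitis, in which naive recipients receive myelin-reactive CD4+ T cells from CD45.1 donors that were cultured with IL-23 toward a Th17 phenotype. Recipients were young adults (8 to 12 weeks) or middle-aged (40 to 44 weeks), and cords were taken on day 6 or day 10 posttransfer. Each combination of age and day was 1 library of 4 pooled cords, so that no library had a replicate, and a difference between 2 libraries cannot be told apart from a difference in their handling. The 4 libraries held 8315 cells (young, day 6), 10026 cells (middle-aged, day 6), 9843 cells (young, day 10) and 9873 cells (middle-aged, day 10), and values below follow that order unless said otherwise. Bulk RNA-seq of naive microglia gave 2 further libraries, 1 young and 1 middle-aged.

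CC chemokines are small secreted proteins that direct leukocytes through G protein-coupled receptors. Ccl17 and Ccl22 encode the ligands of CCR4, a receptor of activated T helper and regulatory T cells, and both are known products of dendritic cells and macrophages. Ccl1 encodes a ligand of CCR8, and Ccl20 encodes the ligand of CCR6, a receptor of Th17 cells and B cells. Ccl24 encodes eotaxin-2, a ligand of CCR3 made by macrophages. CCR7 binds CCL19 and CCL21 and guides mature dendritic cells and naive T cells into lymph nodes.

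The members lie on 6 chromosomes (GRCm38, GENCODE vM21). Ccl22 (chr8:94745590-94751699, plus strand) and Ccl17 (chr8:94810453-94812036, plus strand) are neighbours, with 58753 bases between them. Ccl1 and Ccr7 are both on chromosome 11 and Ccr4 and Ccr8 both on chromosome 9, while Ccl20 is on chromosome 1, Ccl24 on chromosome 5 and Ccr6 on chromosome 17. The sequences before the starts of Ccl17 and Ccl22 are shown because these genes were found in the same cells, and that of Ccl1 because its difference between the days was called in clusters 1, 2 and 5. Each is the RefSeq promoter sequence of GRCm38.p6, 5′ to 3′ on the strand of the gene, up to the base before the start and shortened for Ccl22 at its earliest annotated exon, and capitals mark motif matches.
Ccl17 (chr8:94810203-94810452, plus strand): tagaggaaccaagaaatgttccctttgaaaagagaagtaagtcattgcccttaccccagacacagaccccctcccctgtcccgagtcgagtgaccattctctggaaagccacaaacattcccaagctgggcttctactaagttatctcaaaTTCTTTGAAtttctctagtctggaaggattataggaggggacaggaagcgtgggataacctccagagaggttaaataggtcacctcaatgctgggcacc
Ccl22 (chr8:94745434-94745589, plus strand): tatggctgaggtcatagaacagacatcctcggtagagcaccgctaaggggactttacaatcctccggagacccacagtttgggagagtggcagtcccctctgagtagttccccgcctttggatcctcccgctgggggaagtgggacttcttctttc
Ccl1 (chr11:82179813-82180062, minus strand): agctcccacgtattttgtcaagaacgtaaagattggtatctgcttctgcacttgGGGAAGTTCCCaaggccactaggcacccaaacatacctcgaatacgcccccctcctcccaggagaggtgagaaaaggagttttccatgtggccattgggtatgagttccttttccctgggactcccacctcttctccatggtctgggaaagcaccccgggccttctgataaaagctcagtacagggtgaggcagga
Both strands were searched for the STAT motif TTCNNNGAA, the AP-1 motif TGANTCA and the kappaB consensus. The Ccl17 sequence held 1 STAT match that began 99 bases before the start, in a window where 7.02% of 32851 promoters held one. The capitals of Ccl1 are 2 overlapping matches of the kappaB consensus that began 196 and 195 bases before the start, and 7.25% of promoters held such a match. The Ccl22 sequence held none of the 3 motifs, and an AP-1 match was in 6.75% of promoters. A match of letters does not show that a factor binds there.

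**Figure D1:**
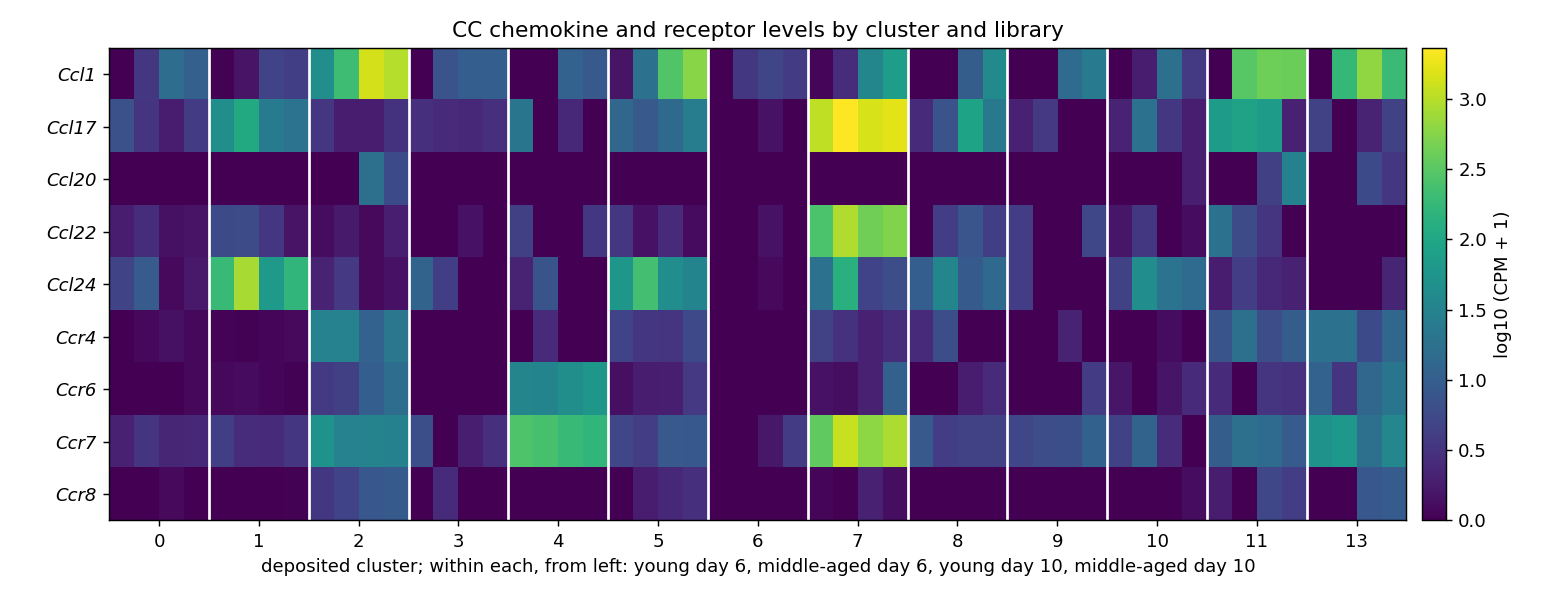
Level of each member, 1 per line, as log10 of CPM + 1 (colour), in 13 clusters with the 4 libraries side by side inside each; CPM are counts per 1000000 UMIs. Ccl17, Ccl22 and Ccr7 were highest in cluster 7 in each of the 4 libraries, whereas Ccl1, Ccl20, Ccr4 and Ccr8 had most of their UMIs in cluster 2 and Ccl24 in cluster 1.

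The authors' 16 clusters carried no names. By marker genes, cluster 7 was dendritic cell-like, cluster 2 T cell-like, cluster 4 B cell-like, clusters 1 and 5 monocyte/macrophage-like, clusters 8 and 10 microglia-like, cluster 9 NK-like and clusters 0, 3 and 6 neutrophil-like, and clusters 11 to 15 were left without a name. The members helped to form these clusters, so the cluster that holds a member is a description. Levels are counts per 1000000 UMIs (CPM) of a cluster's summed UMIs, with 95% exact Poisson intervals in brackets that cover counting error only, and shares of cells have 95% exact binomial intervals. Total depth was 57337626 to 69859331 UMIs per library, the median cell held 4704.5 to 6196 UMIs, and 154 of 37903 barcodes (0.406%) occurred in more than 1 library.

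Most UMIs of each gene lay in 1 or 2 clusters. Cluster 7 held 93.5% of 7318 Ccl22 UMIs, 78.1% of 27902 Ccl17 UMIs and 75.7% of 12855 Ccr7 UMIs. Cluster 2 held 80.7% of 44599 Ccl1 UMIs, 79.7% of 335 Ccr8 UMIs, 78.8% of 1117 Ccr4 UMIs, 73.8% of 412 Ccl20 UMIs and 52.2% of 763 Ccr6 UMIs. Cluster 1 held 90.4% of 34761 Ccl24 UMIs. The cells with at least 1 UMI numbered from 45 for Ccl20 to 2097 for Ccr7. The UMIs of the ligands Ccl1, Ccl17 and Ccl24 lay in 1791, 1347 and 1934 cells. The far fewer UMIs of Ccr4 and Ccr8 lay in 866 and 301 cells.

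The CCR4 ligands were highest in the dendritic cell-like cluster. Ccl17 stood at 1089 [1064, 1115], 2309 [2254, 2364], 1426 [1373, 1481] and 1678 [1632, 1725] CPM in cluster 7. Its range over the libraries did not overlap that of the next cluster, cluster 11, at 1.02 to 86.2 CPM, in an order of the 13 clusters that held at least 20 cells in every library (clusters 12, 14 and 15 did not). A Ccl17 UMI was found in 45.5%, 73.4%, 52.5% and 60.2% of the 626, 289, 198 and 319 cells of cluster 7, or in 35.1%, 62.0%, 39.5% and 47.6% after each cell was thinned to 2000 UMIs. In the neutrophil-like cluster 0, which should lack the gene, the share was 0.231% to 0.787% at a median depth of 2193 to 2365 UMIs.

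Ccl22 stood at 258.8, 918.2, 434.7 and 529.4 CPM in cluster 7, against 0 to 17.0 CPM in the next cluster. It was detected in 28.6%, 56.4%, 35.9% and 45.5% of cluster 7 cells (19.2%, 40.4%, 25.3% and 34.5% thinned) and in 0.116% to 0.464% of cluster 0 cells. Of both genes, the middle-aged day 6 library held the most and the young day 6 library the least.

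Ccr7 followed the same order of libraries at 351.4, 1204, 611.9 and 891.0 CPM in cluster 7, with 15.3%, 45.7%, 35.4% and 46.4% of cells positive (13.5%, 40.1%, 26.3% and 40.7% thinned). The B cell-like cluster 4 came next at 275.4, 239.5, 183.8 and 160.4 CPM, a range that did not overlap that of cluster 7 but did overlap those of the small B cell marker clusters 14 and 15, at 62.2 to 195.0 and 61.5 to 169.1 CPM. The T cell-like cluster 2 held 50.7, 30.2, 31.4 and 29.3 CPM of Ccr7.

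**Figure D2:**
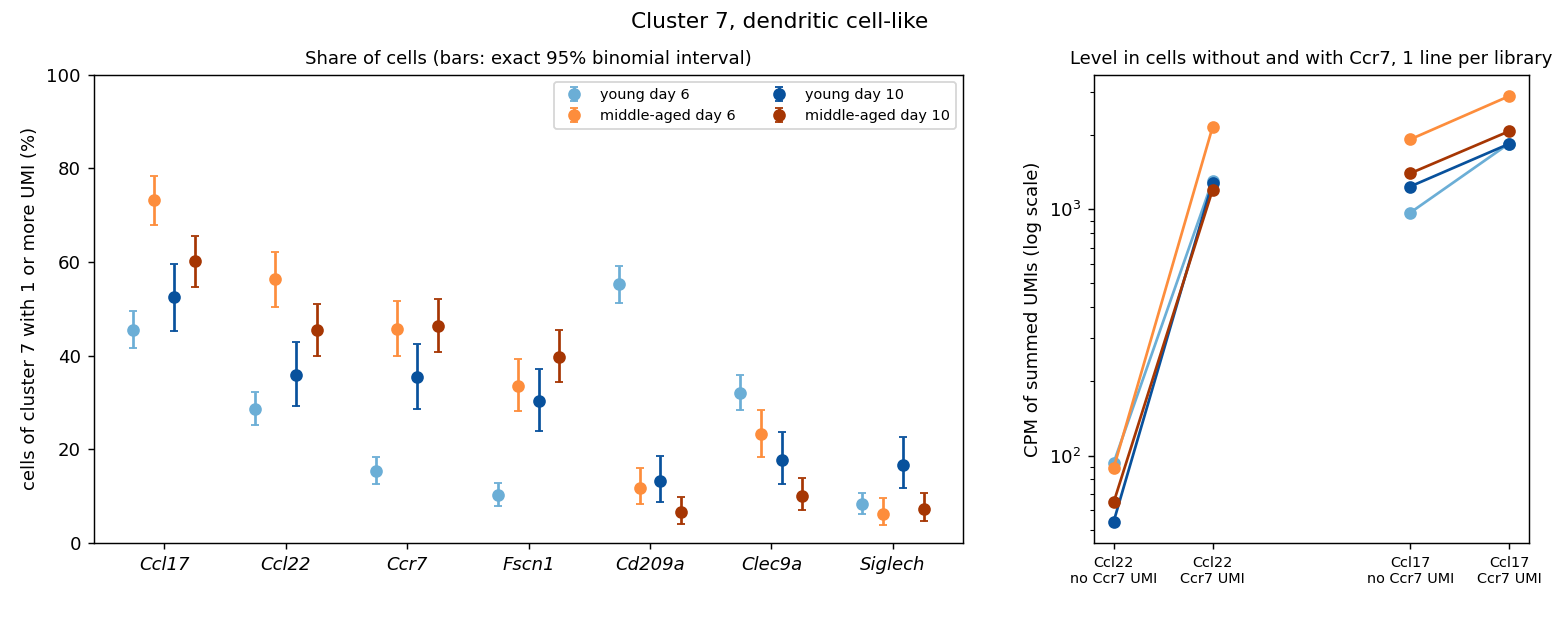
On the left, share of cluster 7 cells (%) with at least 1 UMI of 7 genes in each library, with exact 95% binomial intervals; on the right, levels of Ccl22 and Ccl17 (CPM, log axis) in cells without and with a Ccr7 UMI, 1 line per library. The young day 6 library had the lowest shares of Ccl17, Ccl22, Ccr7 and Fscn1 and the highest of Cd209a, and each of the 4 lines rises from cells without to cells with Ccr7 for both ligands.

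The 3 genes were found in the same cells of cluster 7. Of the 558 cells with a Ccl22 UMI, 473 (84.8%) also had Ccl17, and these were 59.6% of the 793 Ccl17+ cells. Of the 446 Ccr7+ cells, 379 (85.0%) had Ccl22 and 339 (76.0%) had Ccl17. To ask what distinguishes such cells, the cells with and without a member were summed within each library and compared across the 4 libraries with edgeR's quasi-likelihood test, with the library as a block and Benjamini-Hochberg adjustment over all genes tested. Depth can differ between the classes, so each comparison was repeated on thinned cells. In cluster 7 the cells with Ccl22 were the shallower class in each library, with medians of 7255 to 8897 UMIs against 9134 to 10181.5.

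Ccl22+ cells differed from the other cells of cluster 7 in 30.3% of 9305 genes. Among the members, Ccr7 was 1860 against 40.1 CPM, higher in 4 of 4 libraries (log2 difference 5.68, SE 0.41, adjusted p = 4.57e-06). Ccl17 was 3172 against 618.3 CPM (2.23, SE 0.17, adjusted p = 5.92e-06). Both calls held in thinned cells, and 2 of 5 members tested passed the threshold of 0.05, with Ccl1 (adjusted p = 0.788), Ccl24 (0.166) and Ccr6 (0.848) short of it.

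Of 22 genes for dendritic cell maturation and migration, all 22 were higher in Ccl22+ cells, with a median log2 difference of 2.28 where the median of all genes was 0.00481. Fscn1, an actin-bundling protein of mature dendritic cells, was 968.8 against 16.1 CPM (log2 6.19), Relb, a subunit of noncanonical NF-kappaB, was 329.3 against 65.9 CPM (2.40), and the costimulatory genes Cd80 (2.17) and Cd40 (1.45) were also higher. The conventional dendritic cell subset genes were split, with 3 of 12 higher and 4 lower. Xcr1 (-2.42) and Clec9a (-1.21), receptors of type 1 conventional dendritic cells, and Cd209a (-2.67), a lectin of monocyte-like and type 2 cells, were among those that were lower. Largest in fall were Siglech (-5.68), Ly6d (-5.16) and Ccr9 (-4.41), genes of plasmacytoid dendritic cells, while Ubd (6.48) and Gm13546 (6.42) were the largest in rise.

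Ccr7+ cells of cluster 7, compared after the values had been seen, were the narrower class. They differed in 37.9% of 9225 genes, 2 of 5 members tested were called, and Ccl22 was higher in 4 of 4 libraries (4.34, SE 0.14, adjusted p = 1.05e-09). In each library Ccl22 was 1306, 2153, 1283 and 1197 CPM in Ccr7+ cells and 93.5, 89.1, 54.0 and 64.6 CPM in the rest of cluster 7. The classes did not overlap, and the order of the libraries among Ccr7+ cells was not that of the whole cluster. Ccl17 differed less, at 1851, 2882, 1845 and 2076 CPM in Ccr7+ cells and 968.9, 1924, 1238 and 1400.5 CPM in the others (0.74, SE 0.08, adjusted p = 1.66e-05). All 22 maturation genes were higher again (median 2.52), and Il12b, which encodes the p40 subunit of IL-12 and IL-23, had the largest difference at 162.5 against 0.755 CPM (7.49, SE 0.37, adjusted p = 1.62e-08). Ccr1, Ccr2 and Ccr9 were lower, at -0.95, -1.75 and -4.27, whereas Ccrl2, which binds chemerin and CC chemokines without signalling, was higher (0.77).

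Ccl17+ cells were a wider class. They differed in 11.8% of 9448 genes from the rest of cluster 7, with Ccl22 at 801.2 against 53.8 CPM (3.74, SE 0.37, adjusted p = 8.01e-05) and Ccr7 at 1032 against 212.3 CPM (2.13, SE 0.37, adjusted p = 0.0027), again 2 of 5 members. The Ccr7 difference was 1.57 (adjusted p = 0.0788) when cells with markers of another lineage were left out. Of the 22 maturation genes 18 were higher and none lower, with a median of 0.99 and Fscn1 at 2.02. Siglech was 1.97 against 150.6 CPM (-6.22, SE 0.22, adjusted p = 7.18e-09), lower in 4 of 4 libraries, and Ccr9 was 1.97 against 89.5 CPM (-5.46). Procr, the protein C receptor, and Cd1d1, a lipid-presenting molecule, rose by 3.21 and 2.61.

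The make-up of cluster 7 changed between libraries. Cd209a was detected in 55.3%, 11.8%, 13.1% and 6.58% of its cells and Fscn1 in 10.2%, 33.6%, 30.3% and 39.8%, so that the young day 6 library stood apart in both. Clec9a was found in 32.1%, 23.2%, 17.7% and 10.0%, and Siglech in 8.31%, 6.23%, 16.7% and 7.21%. The part of this make-up in the library differences of Ccl17, Ccl22 and Ccr7 was not tested.

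Age and day were compared across the 4 libraries in 1 model with both terms. The model left 1 degree of freedom for the spread and could not test whether age acts differently on the days. When 1 library was left out, the fit for age or day dropped the other factor too, so those fits do not separate age from day. In cluster 7, 0.466% of 9867 genes passed for age and 6.48% for day. Of 5 members tested, Ccr7 and Ccl24 passed for age. Ccr7 was higher in middle-aged recipients on both days, by a log2 ratio of 1.78 [1.70, 1.85] on day 6 and 0.54 [0.44, 0.64] on day 10 (model 1.19, SE 0.26, adjusted p = 0.048), but RLE scaling (adjusted p = 0.0752), DESeq2 (0.244) and leaving out cells with markers of another lineage (0.694) each ended the call. Ccl22 was higher in middle-aged recipients by 1.83 [1.74, 1.91] and 0.28 [0.16, 0.41] (1.09, SE 0.28, adjusted p = 0.106). Ccl17 was higher by 1.08 [1.04, 1.13] and 0.23 [0.17, 0.30] (0.69, SE 0.23, adjusted p = 0.248). None of the 3 passed for day, and each went up from day 6 to day 10 in young recipients and down in middle-aged ones.

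Outside cluster 7, Ccl17 was found in the macrophage-like cluster 1, at 44.6, 109.9, 23.4 and 18.0 CPM from 88, 120, 53 and 70 cells. It was lower on day 10 at both ages (log2 -1.94, SE 0.33, adjusted p = 0.000677), as was Ccl22 at 4.67, 5.03, 2.43 and 0.490 CPM (-2.10, SE 0.45, adjusted p = 0.00353). In cluster 1, 29.9% of 12222 genes differed by day, and 4 of 5 members tested did. For Ccl17, DESeq2 gave an adjusted p of 0.0903, and the fold fell to -1.22 without the middle-aged day 6 library. Over all 331 Ccl17+ cells of cluster 1, 7 of 8 dendritic cell markers were higher than in the other cells, with a summed level of 4086 against 2499 CPM. By library, 5, 6, 5 and 6 of the 8 were higher, and Xcr1 was at 0 in the Ccl17+ cells. What part these cells had in the result was not tested.

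Ccl24 was the macrophage member. In cluster 1 it stood at 182.9 [177.3, 188.6], 831.3 [820.3, 842.4], 64.9 [61.7, 68.3] and 165.0 [160.0, 170.2] CPM, from 308, 755, 162 and 234 cells. The middle-aged library was the higher of each day and the day 6 library the higher of each age. Shares of cells with a UMI were 12.9%, 27.4%, 7.48% and 10.0% (7.48%, 17.1%, 3.35% and 5.74% thinned), against 0.0578% to 1.88% in cluster 0. Without the 10 cells of each library with the most Ccl24 the levels were 122.0, 665.6, 31.2 and 97.2 CPM, in the same order.

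The middle-aged over young ratio of Ccl24 in cluster 1 was 2.18 [2.14, 2.23] on day 6 and 1.35 [1.26, 1.43] on day 10 on the log2 scale. The model gave 1.82 (SE 0.25, adjusted p = 0.0135) where 0.0982% of genes passed for age, and Ccl24 was the only 1 of 5 members that did. With RLE scaling the adjusted p was 0.0901 and with no filter on low counts 0.233, whereas DESeq2 gave 2.26e-07. Without the middle-aged day 6 library, in a fit without day, the difference was 0.32, which mixes age with day. From day 6 to day 10 Ccl24 fell by 2.08 (SE 0.25, adjusted p = 4.78e-05). Without the middle-aged day 6 library, in a fit without age, it fell by 0.78.

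**Figure D3:**
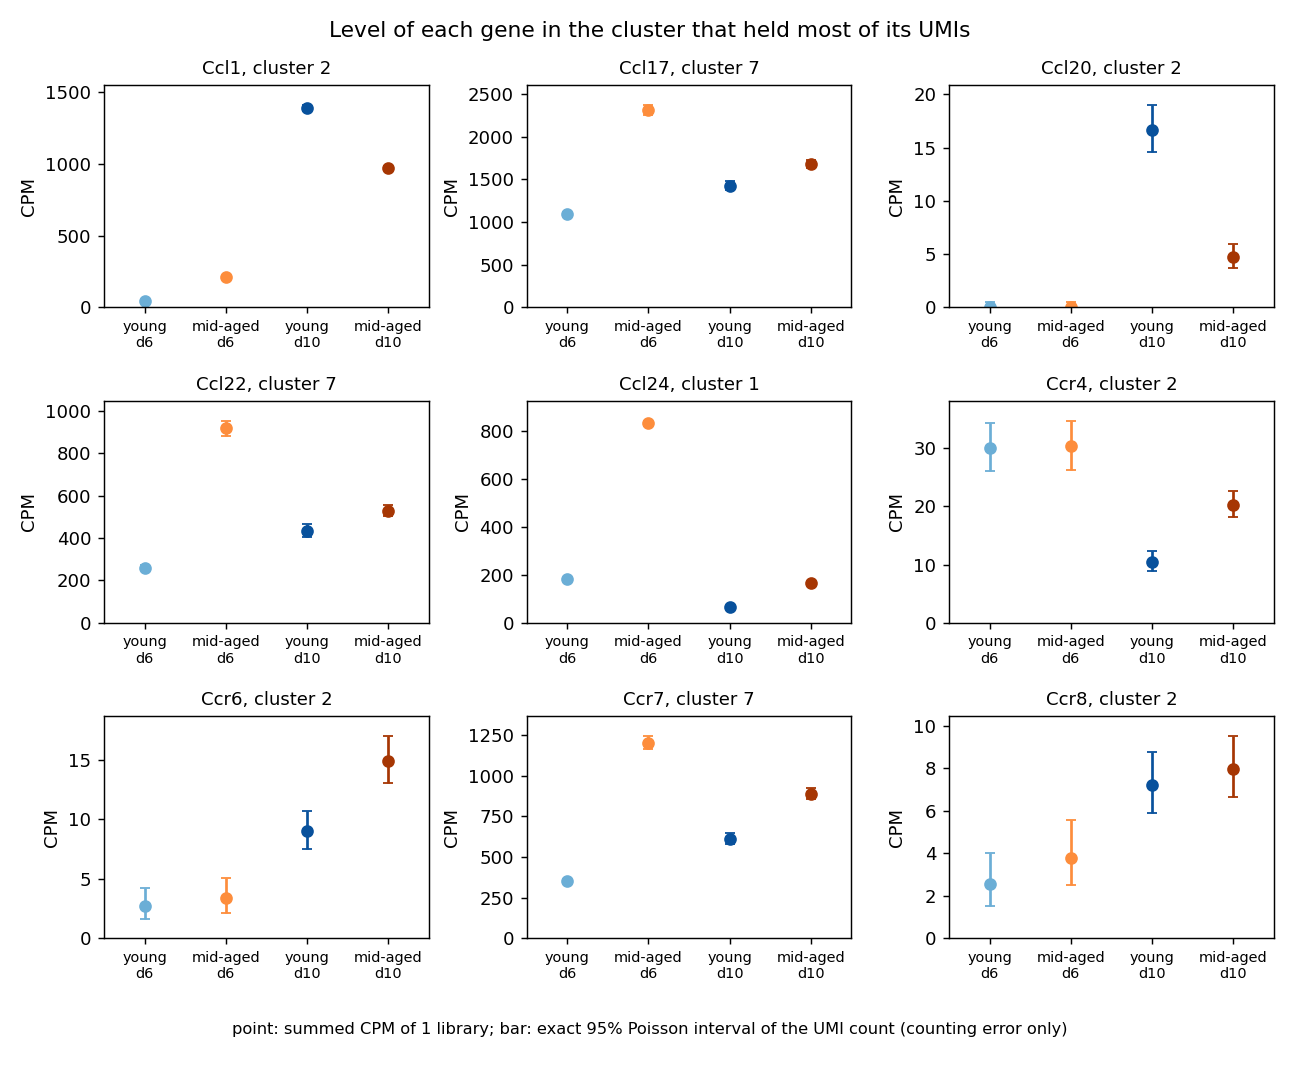
Level of each member (CPM, axes from 0) in the cluster that held most of its UMIs, by library, with 95% exact Poisson intervals of the count. Ccl24 in cluster 1 was higher in middle-aged than in young recipients on each day and higher on day 6 at each age, while Ccl1 in cluster 2 was higher on day 10 at each age.

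Within cluster 1, Ccl24+ cells differed little from the others, in 1.9% of 12048 genes, and none of 4 members tested was called (25 of 111 Ccl22+ cells and 63 of 331 Ccl17+ cells had a Ccl24 UMI). At an unadjusted p under 0.05, 12.2% of all genes passed. Nos2, which encodes inducible nitric oxide synthase, was higher in 4 of 4 libraries, at 243.4, 997.5, 391.9 and 210.7 CPM in Ccl24+ cells and 123.7, 671.5, 170.8 and 83.6 CPM in the others (0.98, SE 0.10, adjusted p = 3.06e-05). Spp1, which encodes osteopontin, was 1073 against 520.6 CPM (1.12, SE 0.13, adjusted p = 0.000122), and 4 of 11 other CC chemokines were higher, among them Ccl7 (0.86), Ccl6 (0.70) and Ccl2 (0.55), while Ccl5 (-0.34) was lower. Apoe, an apolipoprotein, was 2629, 2583, 6483 and 10586 CPM against 2759, 2783, 14416 and 24988 CPM, apart mainly on day 10 (-0.67, SE 0.14, adjusted p = 0.0196), but not by DESeq2 (adjusted p = 0.582).

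Ccl24 in the second macrophage-like cluster, cluster 5, was 59.3, 224.3, 43.0 and 32.4 CPM. It was lower on day 10 (-1.92, SE 0.37, adjusted p = 0.00138), although not by DESeq2 (0.291) or without cells of other lineage markers (-0.69, adjusted p = 0.133), and it did not pass for age (0.92, SE 0.37, adjusted p = 0.44). The ages differed by 1.92 [1.77, 2.07] on day 6 and -0.41 [-0.74, -0.08] on day 10. In cluster 7, Ccl24 came from 15, 17, 2 and 6 cells, and without the top 10 cells it was 0.767, 2.48, 0 and 0 CPM. Its call for age there (2.67, SE 0.37, adjusted p = 0.00159) turned to -1.15 without the middle-aged day 6 library, in a fit without day. The libraries in that fit held 17.1 (young, day 6), 3.72 (young, day 10) and 5.30 CPM (middle-aged, day 10). Over all libraries, 8 of 8 monocyte/macrophage markers were higher in the Ccl24+ cells, with a summed level of 10261 against 4913 CPM. By library, 5, 8, 7 and 5 of the 8 were higher. What part these cells had in the call was not tested.

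Ccl1 was the ligand of the T cell-like cluster, and it was far higher on day 10. In cluster 2 its level was 45.0 [40.2, 50.3], 209.8 [199.1, 220.9], 1387 [1367, 1407] and 972.1 [956.6, 987.8] CPM. The positive cells were 17 of 1307 (1.30%), 57 of 1137 (5.01%), 485 of 1923 (25.2%) and 460 of 2463 (18.7%), or 0.706%, 3.47%, 18.3% and 13.8% of thinned cells. Both day 10 libraries were thus above both day 6 libraries, in level and in share. In cluster 0 the share was 0%, 0.670%, 3.59% and 2.50%, at a median of 1 UMI per positive cell, and the 0 of 1489 cells allows a share of up to 0.201%.

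Ccl1 UMIs were concentrated in a few cells, the highest of which held 123, 262, 654 and 672 UMIs. The 10 leading cells of cluster 2 held 97.8%, 70.4%, 23.6% and 28.2% of the UMIs, and without them the levels were 1.00, 62.7, 1068 and 703.6 CPM. Day 10 was 4.94 [4.78, 5.11] above day 6 in young and 2.21 [2.13, 2.29] in middle-aged recipients on the log2 scale, and the model gave 3.65 (SE 0.45, adjusted p = 2.37e-05). The call held under every alternative run, with a fold of 2.56 to 4.86 when 1 library was left out. In cluster 2, 7.22% of 11362 genes passed for day. Of 6 members tested Ccl1, Ccr6 and Ccr8 were higher and Ccr4 lower, and Ccl20, which met the filter on low counts only through day 10, is not counted. Age gave 0.80 (SE 0.43, adjusted p = 1.00), with the middle-aged library higher on day 6 (2.22 [2.04, 2.40]) and lower on day 10 (-0.51 [-0.54, -0.48]).

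Ccl1 UMIs appeared in other clusters on day 10 as well. Cluster 5 held 0.513, 17.3, 278.7 and 580.5 CPM (day effect 5.77, SE 0.47, adjusted p = 3.81e-07) from 3, 4, 55 and 49 cells. In cluster 5, 25.6% of 10379 genes passed for day and 0.674% for age, and of 5 members 2 (Ccl1 and Ccl24) passed for day and none for age, where 8.58% of all genes had an unadjusted p under 0.05. In the Ccl1+ cells of cluster 5, 7 of 7 T cell markers were higher than in the other cells, with a summed level of 2374 against 580.7 CPM. Without the 10 leading cells of each library the day 10 levels of cluster 5 were 53.1 and 101.2 CPM. In cluster 7, Ccl1 had 1, 5, 64 and 230 UMIs, or 34.1 and 76.2 CPM on day 10, and 2.31 and 1.75 CPM there without the 10 leading cells. It met the filter on low counts only through day 10, so no test is given. Its 35 positive cells likewise had 7 of 7 T cell markers higher (1380 against 336.1 CPM). In cluster 1, it rose from 0.0449 and 0.495 to 3.75 and 3.15 CPM (3.47, SE 0.56, adjusted p = 0.000453). There 6 of 7 T cell markers were higher in Ccl1+ cells over all libraries (62.3 against 26.8 CPM), but 1 of 7 in the young day 10 library (25.3 against 33.6 CPM). What T cell RNA contributed to these values was not tested.

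Cluster 11 was led by basophil genes, but Mcpt8 was found in 3.09% to 11.3% of its cells and Cd3e, of the T cell receptor complex, in 47.4% to 85.2%. It held Ccl1 at 0, 312.1, 415.2 and 404.6 CPM, from 0, 6, 62 and 53 cells. Without the 10 leading cells of each library these levels were 0, 0, 78.5 and 101.9 CPM. In young recipients day 10 would be 171-fold higher than day 6, with 3 counts taken as the limit of the library at 0. That limit treats UMIs as independent, whereas they were bunched in few cells, so this fold is not a lower bound. In cluster 13, left without a name, Ccl1 was 0, 170.4, 630.0 and 198.1 CPM from 0, 2, 18 and 11 of 34, 60, 82 and 96 cells. At least 2 UMIs of T cell markers were found in 100% of the Ccl1+ cells of cluster 13 and in 98.8% of its other cells. In cluster 11 too, 7 of 7 T cell markers were higher in Ccl1+ cells (4501 against 2865 CPM). In cluster 11, 2.19% of 9609 genes passed for day. Ccl20, with 0, 0, 12 and 87 UMIs, met the filter on low counts only through day 10 and is not counted, and none of the 4 other members tested passed for day. None of the 5 passed for age, where 0.104% of genes did and 9.48% had an unadjusted p under 0.05.

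Ccl1+ T cells were higher in Il2, Csf2, Ifng and Il13 and lower in Il17a, Il17f and Il22. They differed from the other cells of cluster 2 in 14.6% of 11043 genes, and 4 of 6 members tested were called, all lower. These were Ccr4 (-0.89), which thinning ended (adjusted p = 0.162), and Ccr6 (-0.90), Ccr7 (-0.55, lower in 3 of 4 libraries) and Ccl20 (-1.41, found in 2 libraries), which DESeq2 did not call (adjusted p = 0.204, 0.351 and 0.92). Il2 was 4405, 250.6, 153.9 and 56.7 CPM in Ccl1+ cells and 8.62, 20.6, 14.0 and 6.99 CPM in the others (4.68, SE 0.41, adjusted p = 7.02e-12). Csf2, which encodes GM-CSF, was 1485, 1030, 818.4 and 542.2 CPM against 26.2, 140.6, 133.8 and 80.2 CPM (3.34, SE 0.22, adjusted p = 1.23e-15). Neither gene overlapped between the classes. The young day 6 values of Ccl1+ cells came from 17 cells. Ccl1+ cells were the deeper class in each library, with medians of 5979 to 8780 UMIs against 4697.5 to 5619.5.

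Ccl3 (2.85) and Ccl4 (2.31), chemokines of activated T cells, Ifng (2.33) and Il13 (3.62) were also higher in Ccl1+ cells, in 4 of 4 libraries each. Lower were Gzmb (-3.14), a granzyme of cytotoxic cells, Cd8b1 (-2.39), Trdc (-3.35), the constant region of the gamma delta T cell receptor, and Il22 (-2.58). Of the 8 naive and central memory genes 7 were lower, and none was higher. The Th17 list was split, with 2 of 12 higher (Csf2 among them) and 6 lower, including Il17a (-1.16), Il17f (-3.40) and Il23r (-1.19). The regulatory list had 5 higher and 5 lower of 12, with Foxp3 at -1.47 and Il2ra at 0.58, and the Th1 list 3 higher and 2 lower of 8. Xcl1 (2.83) was higher in 2 of 4 libraries only, and DESeq2 did not call it (adjusted p = 0.869).

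Ccl20 was the rarest ligand. No UMI was found in any cell on day 6, and 22 and 14 cells of cluster 2 held 231 and 73 UMIs on day 10, at 16.7 [14.6, 19.0] and 4.72 [3.70, 5.94] CPM. The 10 leading cells held 90.0% and 91.8% of these UMIs. With 3 counts taken as the limit on day 6, day 10 would be 39.4-fold higher in young and 10.8-fold higher in middle-aged recipients. That limit treats UMIs as independent, whereas most lay in few cells, so these folds are not lower bounds. The model called Ccl20 for age too (-1.88, SE 0.34, adjusted p = 0.0495), as 1 of 7 members where 0.0792% of genes passed, but this rests on day 10 alone, where the middle-aged library was lower (-1.82 [-2.22, -1.43]), and DESeq2 gave an adjusted p of 1.00. In cluster 11 the order was opposite, at 3.31 CPM from 2 young cells and 29.5 CPM from 4 middle-aged cells on day 10. No cell of clusters 0, 1 or 7 held a Ccl20 UMI, which allows a share of cells with a UMI, not of cells that express the gene, of up to 1.52% in the smallest of these groups of cells.

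Ccr8, the receptor of CCL1, was sparse. Its level in cluster 2 was 2.54 [1.51, 4.02], 3.79 [2.48, 5.55], 7.22 [5.87, 8.78] and 7.96 [6.62, 9.50] CPM, from 17, 26, 92 and 105 cells, and no UMI was found in 295, 184, 543 and 338 B cell-like cells. That allows shares of cells with a UMI of up to 0.552% to 1.63%, and at this depth it does not limit the share that expresses Ccr8. It was higher on day 10 (1.37, SE 0.30, adjusted p = 0.00553), but DESeq2 gave an adjusted p of 0.244. Of 240 Ccr8+ cells in cluster 2, 76 (31.7%) had a Ccl1 UMI, whereas 14.9% of the 6830 cells of the cluster did. In each library the share of Ccr8+ cells with Ccl1 was 29.4%, 23.1%, 33.7% and 32.4%. The shares of all cluster 2 cells with Ccl1 were 1.30%, 5.01%, 25.2% and 18.7%.

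**Figure D4:**
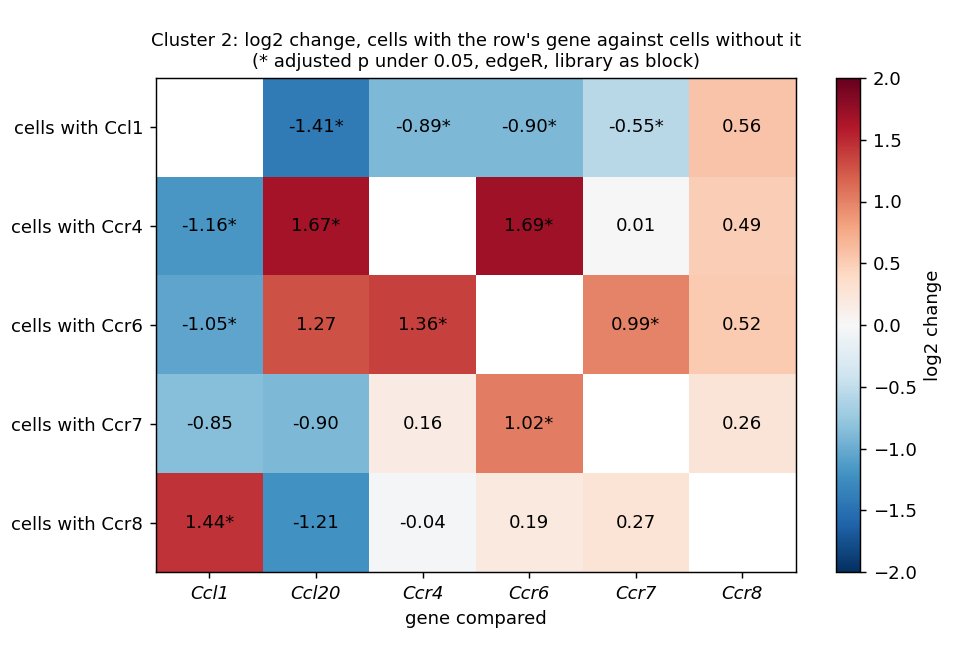
Log2 difference of the members named below each column between cells of cluster 2 with and without a UMI of the member named at the left (colour and number; an asterisk marks an adjusted p under 0.05 in edgeR). Ccr4 and Ccr6 were each higher in the cells with the other, and Ccl1 was lower in cells with Ccr4 or Ccr6 and higher in cells with Ccr8.

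The cells with Ccr8 differed in 3.38% of 11287 genes, and of 6 members Ccl1 was called, at 1092, 436.7, 1923 and 1249 CPM against 26.2, 201.7, 1349 and 952.7 CPM (1.44, SE 0.13, adjusted p = 2.95e-26). The cells with a Ccr8 UMI were deeper, with medians of 5863, 6686, 9392 and 8042 UMIs against 4693, 4967, 6153 and 5249.5, and after thinning the difference was 0.32 (adjusted p = 0.672), while DESeq2 gave 1.55 (0.565). With 2 or more Ccr8 UMIs asked for, which left 1, 0, 8 and 15 cells, it turned to -2.16 (adjusted p = 0.629). Il13, a type 2 cytokine, was 47.8, 600.5, 30.6 and 7.92 CPM against 3.31, 25.2, 3.55 and 7.55 CPM (3.26, SE 0.21, adjusted p = 3.9e-52), a difference that was near 0 in middle-aged recipients on day 10 and 0.01 (adjusted p = 0.999) after thinning. The calls for Gzmb (-3.52), Ccl5 (-2.34) and 6 of 8 naive genes were all falls. By contrast Tnfrsf4 (0.87), which encodes OX40, was higher in 4 of 4 libraries.

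Ccr4, the receptor of CCL17 and CCL22, was found in T cells of each library. Its level in cluster 2 was 30.1 [26.2, 34.4], 30.3 [26.3, 34.7], 10.5 [8.83, 12.3] and 20.3 [18.1, 22.7] CPM, from 159, 155, 119 and 252 cells. The shares of 12.2%, 13.6%, 6.19% and 10.2% (4.86%, 4.75%, 1.92% and 3.61% thinned) put the young day 10 library lowest. Ccr4 was lower on day 10 (-0.93, SE 0.21, adjusted p = 0.00842), but DESeq2 (0.103) did not call it and without the young day 10 library the difference was -0.48 (adjusted p = 0.425). In 1360 B cell-like cells, 1 Ccr4 UMI was found.

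The cells with Ccr4 differed in 3.95% of 11210 genes, and 3 of 6 members were called. Ccr6 was higher in 4 of 4 libraries (22.4 against 7.34 CPM, log2 1.69, SE 0.20, adjusted p = 7.56e-08) and Ccl1 lower in 4 of 4 (431.4 against 889.0 CPM, -1.16, SE 0.17, adjusted p = 9.53e-06), although DESeq2 did not call Ccl1 (0.417). Il17a was 153.9, 1021, 756.7 and 687.3 CPM in Ccr4+ cells and 108.0, 634.7, 261.5 and 330.6 CPM in the others (0.96, SE 0.08, adjusted p = 5.8e-11). Higher were 6 of 12 Th17 and 7 of 12 regulatory genes, including Il17f (2.09), Rora (0.49), Foxp3 (1.14) and Tnfrsf4 (0.88), with none lower in either list. Il17f was not higher in the middle-aged day 10 library (4.44 against 6.56 CPM). Ifng (-1.48), Tbx21 (-0.83) and 2 more of 8 Th1 genes were lower, as were Ccl5 (-2.04), Ccl4 (-1.48) and, in 3 of 4 libraries, Ccl3 (-1.21). Il13 (-0.43, adjusted p = 0.65) and Il4 (0.27, adjusted p = 0.91) did not pass. The third member call, Ccl20 (1.67), was lost and turned to -0.29 in thinned cells.

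Ccr6 marked a smaller group of T cells. In cluster 2 it was 2.68 [1.62, 4.19], 3.35 [2.12, 5.03], 9.02 [7.51, 10.7] and 15.0 [13.1, 17.0] CPM, from 16, 18, 63 and 134 cells. Day 10 was higher by 1.75 [1.05, 2.53] in young and 2.16 [1.54, 2.84] in middle-aged recipients (2.07, SE 0.28, adjusted p = 5.47e-05), and the call held under every alternative run. In cluster 0 the share of cells with Ccr6 was 0% in 3 libraries, of up to 0.201% by the limit of 3 counts, and 0.0463% in the middle-aged day 10 library.

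Ccr6+ T cells were high in IL-17 genes and low in Th1 genes. They differed in 2.76% of 11305 genes from the rest of cluster 2, and 3 of 6 members were called. Il17a was 389.5, 2441, 1375 and 1416 CPM against 110.8, 659.4, 259.0 and 305.1 CPM (2.01, SE 0.12, adjusted p = 2.15e-60). Ifng was 85.5, 12.1, 31.5 and 27.8 CPM against 446.5, 1536, 578.6 and 384.7 CPM (-4.23, SE 0.18, adjusted p = 6.42e-117). In neither gene did a library go against the others. Adjusted p-values this small, here and for Ccr8+ cells, do not measure agreement between the 4 libraries. In the same edgeR test Gm2663, higher in 1 library and lower in 1, had an adjusted p of 3.61e-27.

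Of 12 Th17 genes 8 were higher and 1 lower, with a median of 1.00 where that of all genes was -0.0524. Il17f (3.31), Il23r (2.48), the receptor for the cytokine used in the donor culture, and Il22 (1.08) were among them, Il23r in 3 and Il22 in 2 of 4 libraries. Of 8 Th1 genes 6 were lower (median -2.04), and Gzma (-6.63), Ccl4 (-4.37), Ccl5 (-3.96) and Ccl3 (-3.57) fell as well. Regulatory genes were higher too, 7 of 12 with none lower, Foxp3 at 1.60 and Ctla4 at 1.14. Ccr4 (1.36, adjusted p = 1.47e-06) and, in 3 of 4 libraries, Ccr7 (0.99, adjusted p = 0.000243) were higher and Ccl1 (-1.05, adjusted p = 9.07e-11) lower in Ccr6+ cells, but DESeq2 called neither Ccr7 (1.00) nor Ccl1 (0.54). After thinning, which left 5, 7, 28 and 55 positive cells, Il17a (0.86, adjusted p = 0.454), Il17f (0.91, adjusted p = 0.627) and Ccr4 (1.70, adjusted p = 0.232) no longer passed, and without cells of other lineage markers Gzma was -0.83 (adjusted p = 0.742).

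Ccr6 was highest in the B cell-like cluster 4, at 32.5, 32.1, 45.1 and 59.4 CPM from 26, 17, 58 and 60 cells, among the 13 clusters with at least 20 cells in every library. Cluster 15, which also carried B cell markers, overlapped it, with up to 53.0 CPM and 1 to 6 positive cells per library. It did not pass for day (0.72, SE 0.26, adjusted p = 0.148) or age (0.36, adjusted p = 0.855), nor did Ccr7 (day -0.53, SE 0.17, adjusted p = 0.0746). In cluster 4, 2.77% of 7364 genes passed for day and 0.896% for age, and 0 of 2 members did, where 11.4% and 7.5% of all genes had an unadjusted p under 0.05. DESeq2 did not call either gene.

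Ccr6+ B cells, compared after the values had been seen, differed in 0.301% of 6982 genes. The only other member tested, Ccr7, did not pass, at 184.2 against 208.5 CPM (-0.07, SE 0.18, adjusted p = 0.994), and 5.37% of all genes had an unadjusted p under 0.05. The largest falls were Jchain (-11.3) and Igha (-9.30), genes of antibody-secreting cells. Both genes met the filter on low counts only through Ccr6- cells, so their falls are a description. Both falls rested on the middle-aged libraries. Jchain was 0, 3445, 0 and 279.5 CPM in Ccr6- cells and 0 in Ccr6+ cells. Igha was 6.16, 6390, 2.33 and 1054 CPM against 0, 0, 5.72 and 0 CPM. Rises in Chil3, Ccl6 and Lyz2, genes of myeloid cells, rested on the middle-aged day 10 library, since without it they were -0.04, -0.20 and -0.09.

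Ccr7+ T cells were high in naive T cell genes. They differed in 9.3% of 11204 genes of cluster 2, and 1 of 6 members was called, Ccr6, higher in 3 of 4 libraries (1.02, SE 0.32, adjusted p = 0.0462), which thinning and DESeq2 did not call. Tcf7 (1.44), Lef1 (1.32) and Klf2 (1.32) were among the 7 of 8 naive genes that were higher. The Th1 list had 6 of 8 lower, the Th17 list 4 of 12, Il17a at -0.98, and the regulatory list 3 of 12. Cd8b1, of the CD8 coreceptor, was higher (1.61), and S100a4 (-1.74) and Havcr2 (-1.89), which encodes TIM-3, were lower. The level of Ccr7 in cluster 2 did not pass for day (-0.27, adjusted p = 0.518) or age (-0.41, adjusted p = 1.00).

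**Figure D5:**
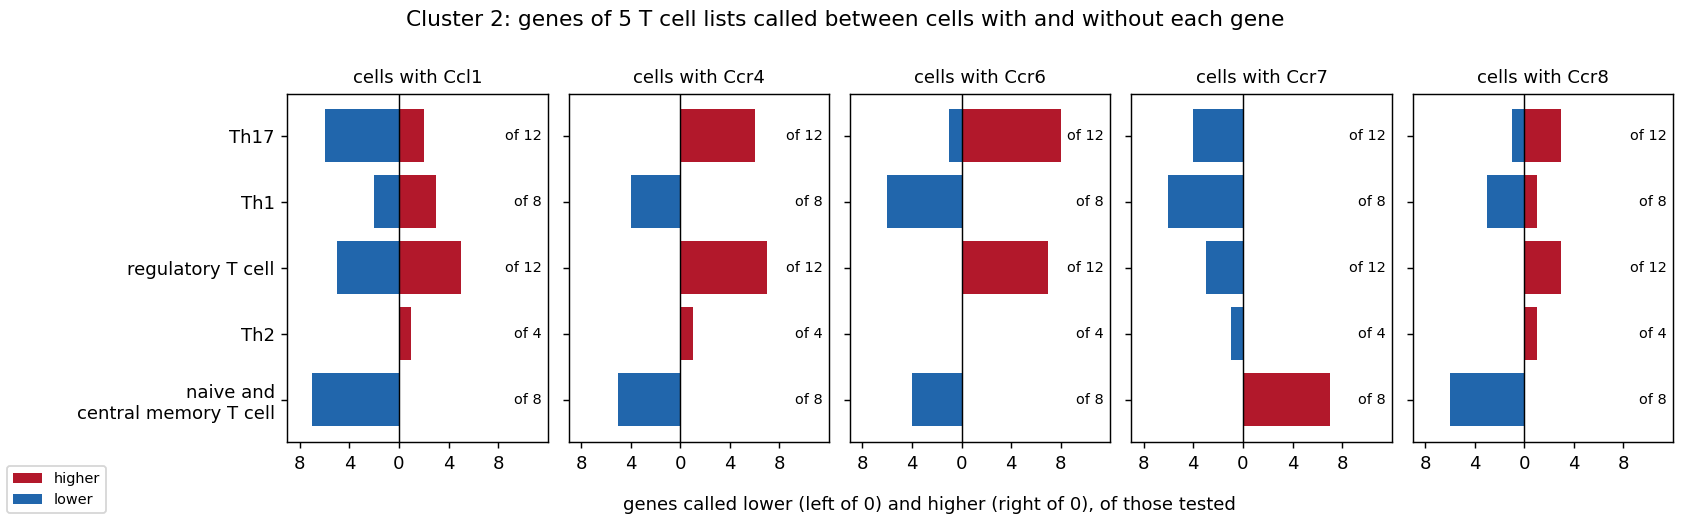
Number of genes of 5 T cell lists (horizontal axis, genes) that were higher (right of 0) or lower (left of 0) at an adjusted p under 0.05 in cells of cluster 2 with a UMI of each of 5 members, beside the number tested. Of 12 Th17 genes, 8 were higher with Ccr6 and 6 lower with Ccl1, and of 8 naive and central memory genes 7 were higher with Ccr7 and 7 lower with Ccl1.

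Naive microglia held little of these genes. In the bulk libraries of 79373420 (young) and 76293436 (middle-aged) counts, Ccl24 had 392 and 337 counts, Ccr6 143 and 187, Ccl22 28 and 16 and Ccr7 12 and 2, which is 4.94 and 4.42 CPM at most. Ccl1, Ccl20 and Ccr8 had no count in either library, with an upper limit of 0.0378 to 0.0393 CPM, and Ccl17 and Ccr4 had at most 2 counts. Only Ccr6 (0.44 [0.12, 0.77]) and Ccr7 (-2.53 [-5.73, -0.36]) had a counting interval for the log2 ratio (middle-aged to young) that left out 0, and in bulk RNA fewer expressing cells and less RNA per cell cannot be told apart. Tmem119 and P2ry12, markers of microglia, stood at 3356 and 3973 CPM in the young library. In the microglia-like clusters 8 and 10 of the inflamed cord, Ccl24 was 7.98 to 33.8 CPM and 3.49 to 43.2 CPM.

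The pattern of each member over 57 sums of cells (clusters by library, of at least 20 cells) was set beside that of 10675 genes. The sums share libraries and clusters, so that Pearson's r is a description. Ccl22 was most like Zfp366 (0.93), Cd209d (0.89) and Plet1 (0.89), and Ccr7 was most like Cd200 (0.92), Dpp4 (0.89) and Btla (0.88). Ccl17 was nearest to Clec10a (0.87) and Ccl24 to Siglec1 (0.87), which encodes the sialoadhesin of macrophages. Ccl1 ran with Igfbp7 (0.90), Csf2 (0.89) and Tnfsf11 (0.88), which encodes RANKL, Ccr4 with Lgals7 (0.91) and Tnfrsf25 (0.90), and Ccr6 with BE692007 (0.86) and Blk (0.84), a kinase of B cells. Ccr8 (Vax2, 0.80) and Ccl20 (Tff1, 0.82) had 335 and 412 UMIs in all, the fewest of the members.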

How the data were processed

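CD45+ spinal cord cells were profiled by single-cell RNA-seq in 4 libraries, and naive microglia by bulk RNA-seq in 2. The deposited values are raw counts. For the single cells the authors counted UMIs per gene with Cell Ranger 3.1.0 against mm10 and gave each cell a Seurat cluster without a name. For the microglia the authors counted reads per gene with featureCounts after HISAT2 alignment. UMIs were summed per library and cluster and scaled to counts per 1000000 UMIs (CPM). Depth was 57337626 to 69859331 UMIs per library, and intervals cover counting error only.

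Doublets were not called. Cells that carried markers of a second lineage (at least 2 UMIs, and 5 for neutrophil genes) were removed in 1 alternative, with limits on the markers set after the data were seen. Age and day were tested with edgeR 4.0.16 (quasi-likelihood, TMM, R 4.3.3) on the 4 sums in each cluster with at least 50 cells per library and a member at 50 CPM, and cells with a member were tested against cells without it with the library as a replicate block and the member left out. Genes needed 10 counts in 2 sums, and the threshold was an adjusted p of 0.05. A gene near 0 in 1 class of cells could meet this through the other class alone, which fixed its direction. The fits were tested on simulated data. Alternatives were DESeq2 1.42.0, RLE size factors, no filter, thinning to 2000 UMIs, 2 or more UMIs of the member, no block, and leaving out each library.

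Named genes were the members, the first 6 tested genes of each list, the 5 largest rises and 5 largest falls at 50 CPM or more among genes called, and the 3 genes most like each member by Pearson's r of log2(CPM + 1). The members, gene lists and cluster markers were chosen with earlier results of these data known. Columns of per-sample values not used numbered 0. Results for some genes are not reported here.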

Additional observations from a re-analysis of the deposited data

Results flagged for a closer look

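For 7 pairs of a member and a cluster with at least 100 UMIs in each pair of libraries, the 2 days or the 2 ages moved in opposite directions, with counting intervals that left out 0 on both sides. Each combination of age and day is 1 library, so the difference between the directions was not tested.

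The log2 ratio, middle-aged to young, changed sign between the days in 4 cases. For Ccl1 in the T cell-like cluster 2 it was 2.22 [2.04, 2.40] on day 6 and -0.51 [-0.54, -0.48] on day 10. For Ccl24 in the macrophage-like cluster 5 it was 1.92 [1.77, 2.07] on day 6 and -0.41 [-0.74, -0.08] on day 10. Ccl17 gave 1.30 [1.20, 1.41] on day 6 and -0.38 [-0.57, -0.19] on day 10 in cluster 1, and the opposite order, -0.63 [-1.15, -0.13] on day 6 and 0.90 [0.42, 1.39] on day 10, in cluster 5. Over all libraries, Ccl17 in cluster 5 had only 305 UMIs from 40 cells, and the intervals do not cover the spread between cells.

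The log2 ratio of day 10 over day 6 changed sign between the ages for the 3 dendritic members of cluster 7. It was 0.39 [0.32, 0.45] in young and -0.46 [-0.51, -0.41] in middle-aged recipients for Ccl17, 0.75 [0.63, 0.87] in young and -0.79 [-0.88, -0.70] in middle-aged recipients for Ccl22, and 0.80 [0.70, 0.90] in young and -0.43 [-0.51, -0.36] in middle-aged recipients for Ccr7.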

How the results depend on the processing

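Levels summed over the 4 libraries were Ccl1 832, Ccl17 1503, Ccl20 7.03, Ccl22 472, Ccl24 328, Ccr4 20.3, Ccr6 9.20, Ccr7 671 and Ccr8 6.17 CPM in the cluster named below. With cells thinned to 2000 UMIs the level over the 4 libraries together was, in CPM, Ccl1 in cluster 2 at 634, Ccl17 in cluster 7 at 1672, Ccl22 in cluster 7 at 595, Ccl24 in cluster 1 at 345, Ccr7 in cluster 7 at 912 and Ccr8 in cluster 2 at 5.22. As the mean of each cell's own CPM the level over the 4 libraries together was, in CPM, Ccl1 in cluster 2 at 621, Ccl17 in cluster 7 at 1671, Ccl22 in cluster 7 at 593, Ccl24 in cluster 1 at 352, Ccr7 in cluster 7 at 907 and Ccr8 in cluster 2 at 5.27. Without the 10 leading cells of each library, a setting added after the data were seen, the level over the 4 libraries together was, in CPM, Ccl1 in cluster 2 at 604, Ccl17 in cluster 7 at 1125, Ccl20 in cluster 2 at 0.675, Ccl22 in cluster 7 at 309.7, Ccl24 in cluster 1 at 243, Ccr4 in cluster 2 at 17.3, Ccr6 in cluster 2 at 6.41, Ccr7 in cluster 7 at 530.4 and Ccr8 in cluster 2 at 4.78. Without cells that carried markers of another lineage the level over the 4 libraries together was, in CPM, Ccl17 in cluster 7 at 1941, Ccl20 in cluster 2 at 8.67, Ccl22 in cluster 7 at 622, Ccl24 in cluster 1 at 421, Ccr4 in cluster 2 at 22.9, Ccr6 in cluster 2 at 11.2 and Ccr7 in cluster 7 at 894.

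Counts of genes called moved by more than 1.5 times in these settings. With RLE size factors the count of genes called was 4 for age in cluster 1, 16 for age in cluster 2 and 159 for age in cluster 5. With no filter on low counts the count of genes called was 3 for age in cluster 1, 34 for age in cluster 2, 303 for age in cluster 5, 262 for age in cluster 7, 408 for age in cluster 11, 610 for day in cluster 11 and 494 for Ccl24 in cluster 1. With the other factor left out the count of genes called was 0 for age in cluster 1, 0 for age in cluster 2, 4 for age in cluster 4, 56 for day in cluster 4, 0 for age in cluster 5, 0 for age in cluster 7, 229 for day in cluster 7, 0 for age in cluster 11 and 50 for day in cluster 11. Without cells of other lineage markers the count of genes called was 2 for age in cluster 1, 26 for age in cluster 2, 33 for age in cluster 4, 21 for age in cluster 5, 4 for age in cluster 7, 234 for day in cluster 7, 2 for age in cluster 11, 112 for day in cluster 11 and 271 for Ccl17 in cluster 7. DESeq2 called 1916 for day in cluster 1, 379 for day in cluster 2, 2 for age in cluster 4, 17 for day in cluster 4, 23 for age in cluster 5, 1155 for day in cluster 5, 3 for age in cluster 7, 253 for day in cluster 7, 97 for day in cluster 11, 598 for Ccl1 in cluster 2, 654 for Ccl17 in cluster 7, 119 for Ccl24 in cluster 1, 184 for Ccr4 in cluster 2, 119 for Ccr6 in cluster 2, 593 for Ccr7 in cluster 2, 118 for Ccr8 in cluster 2 and 2 for Ccr6 in cluster 4. With thinned cells the count of genes called was 581 for Ccl1 in cluster 2, 540 for Ccl17 in cluster 7, 1562 for Ccl22 in cluster 7, 78 for Ccr4 in cluster 2, 29 for Ccr6 in cluster 2, 549 for Ccr7 in cluster 2, 11 for Ccr8 in cluster 2, 1819 for Ccr7 in cluster 7 and 5 for Ccr6 in cluster 4. With 2 or more UMIs of the member asked for the count of genes called was 243 for Ccr4 in cluster 2, 174 for Ccr6 in cluster 2, 9 for Ccr8 in cluster 2 and 35 for Ccr6 in cluster 4.

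With 1 library left out in turn (and, for age and day, the other factor too, which keeps 1 degree of freedom), genes called ranged over 0 for age in cluster 1, 565 to 4910 for day in cluster 1, 0 for age in cluster 2, 279 to 1925 for day in cluster 2, 8 to 107 for age in cluster 4, 10 to 362 for day in cluster 4, 0 for age in cluster 5, 764 to 1775 for day in cluster 5, 0 to 7 for age in cluster 7, 0 to 1414 for day in cluster 7, 0 to 15 for age in cluster 11, 0 to 29 for day in cluster 11, 654 to 1607 for Ccl1 in cluster 2, 641 to 924 for Ccl17 in cluster 7, 107 to 192 for Ccl24 in cluster 1, 243 to 405 for Ccr4 in cluster 2, 149 to 307 for Ccr6 in cluster 2, 522 to 853 for Ccr7 in cluster 2, 218 to 319 for Ccr8 in cluster 2 and 9 to 17 for Ccr6 in cluster 4.

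Each library holds both classes of cells, so the library pairs the sums of cells with and without a member. With no replicate block for the library the counts of genes called were 397 for Ccl1 in cluster 2, 125 for Ccl17 in cluster 7, 1682 for Ccl22 in cluster 7, 0 for Ccl24 in cluster 1, 4 for Ccr4 in cluster 2, 33 for Ccr6 in cluster 2, 45 for Ccr7 in cluster 2, 4 for Ccr8 in cluster 2, 2218 for Ccr7 in cluster 7 and 0 for Ccr6 in cluster 4. Of 115 calls on single genes, 49 held without the block and none turned.

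Differences whose sign turned (log2 scale) were these. For age in cluster 7, Ccl24 ran from -1.15 (without middle-aged day 6) to 4.31 (without young day 6). For day in cluster 7, Ccl17 ran from -0.66 (without young day 6) to 0.46 (without middle-aged day 6), Ccl22 ran from -1.01 (without young day 6) to 0.85 (without middle-aged day 6) and Ccr7 ran from -0.76 (without young day 6) to 1.05 (without middle-aged day 6). For cells with Ccl1 in cluster 2, Ccl20 was 1.07 by DESeq2. For cells with Ccl17 in cluster 7, Ccl24 was -3.29 without cells of other lineage markers. For cells with Ccl22 in cluster 7, Ccl1 ran from -0.53 (without young day 6) to 2.58 (without middle-aged day 10) and Ccl24 was -3.22 without cells of other lineage markers. For cells with Ccr4 in cluster 2, Ccl20 was -0.29 in thinned cells, Ccl20 was -7.22 with 2 or more UMIs, Penk was -0.0050 in thinned cells and Batf3 was -1.12 in thinned cells. For cells with Ccr8 in cluster 2, Ccl1 was -2.16 with 2 or more UMIs, Il13 was -0.64 with 2 or more UMIs, Il2 was -10.65 with 2 or more UMIs, Il2 ran from -0.25 (without young day 6) to 3.40 (without young day 10), Wfdc17 was -1.75 in thinned cells, Wfdc17 was -9.20 with 2 or more UMIs, Wfdc17 was -0.42 without cells of other lineage markers, Wfdc17 ran from -0.29 (without middle-aged day 6) to 2.24 (without middle-aged day 10) and Csf2 was -0.050 with 2 or more UMIs. For cells with Ccr7 in cluster 7, Ccl1 ran from -3.67 (without young day 10) to 1.98 (without middle-aged day 10). For cells with Ccr6 in cluster 4, Chil3 was -1.02 with 2 or more UMIs, Chil3 ran from -0.038 (without middle-aged day 10) to 2.77 (without young day 10), Ccl6 ran from -0.20 (without middle-aged day 10) to 2.18 (without young day 10), Lyz2 was -1.54 with 2 or more UMIs and Lyz2 ran from -0.094 (without middle-aged day 10) to 1.76 (without young day 10). The cause was not tested.

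Of 18 age or day calls on members (with 3 day calls that the filter on low counts fixed, Ccl20 in clusters 2 and 11 and Ccl1 in cluster 7), 16 held with RLE size factors, 17 with no filter, 9 with DESeq2, 9 with the other factor left out and 5 whichever library was left out. Of 115 calls in cells with a member, 114 held with RLE size factors, 115 with no filter, 82 with DESeq2, 88 of 114 in thinned cells, 98 with 2 or more UMIs, 99 of 108 without cells of other lineage markers and 92 whichever library was left out. With 1 library per age and day, no value here measures the spread between mice, and the age and day calls rest on 1 degree of freedom. Ccl20 had no UMI on day 6, so its cells were not compared. The sparse receptors Ccr4, Ccr6 and Ccr8 depend on depth, since a cell with 1 UMI may be scored as negative after thinning.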
